A study of Gelatoporia subvermispora and Trametes versicolor with 24 samples.

Results

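Gelatoporia subvermispora is a white-rot fungus, a wood-decaying basidiomycete that removes lignin ahead of cellulose. The genes described here are those that held much lower transcript levels in standing than in shaken cultures of this fungus, whether or not antioxidants were present. They were chosen by the read counts themselves. Counts were scaled to a common total of 1000000 gene reads per library (CPM), and log2(CPM + 1) was averaged over the 3 libraries of each group. A gene was a member when its static mean lay at least 2 log2 units (4-fold) below its agitated mean both with and without antioxidants. This gave 66 of the 12313 G. subvermispora genes in the count tables, or of 26883 genes when the tables of the second species of the study, Trametes versicolor, are included.

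The G. subvermispora data, from strain FP-105752, were 12 RNA sequencing libraries in 4 groups of 3: static with antioxidants, static without them, agitated with antioxidants and agitated without them. Flasks held 25 mL of an adapted Czapek-Dox medium, with cellobiose at 15 mM as the sugar, and stood still or were shaken at 220 rpm at 28 °C. The antioxidants were ascorbic acid at 5 mM together with α-tocopherol at 1 mM, added 30 min before the inducer. Every culture, including those without antioxidants, received about 2 mM 4-hydroxybenzoate on day 10 and was collected 24 h later, on day 11. No culture lacked 4-hydroxybenzoate, so its own effect cannot be read from these groups. The agitated and static cultures were all of 1 strain, 1 medium and 1 age. Nothing in the labels ties a replicate to a flask of its own, so p-values measure the spread between these libraries, which may be technical.

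As background, a filamentous fungus in a shaken flask grows as submerged pellets that are kept mixed with the medium. In a standing flask it forms a mat, and oxygen and nutrients reach the hyphae by diffusion. White-rot fungi attack lignin with secreted peroxidases and laccases and with small radicals, and the secretion of these enzymes is known to depend on culture conditions. Ascorbic acid is a water-soluble antioxidant and α-tocopherol a lipid-soluble one. The count tables identify genes by running numbers and pair them with neither names nor products. The members are therefore given by number and grouped by their behaviour, and no function can be attached to any of them here.

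Libraries held between 7875324 and 26653884 gene reads, and the shallowest was static replicate 1 without antioxidants. All 66 members passed the filter on low counts, as did 10529 genes in all. In each library between 31.4% and 49.1% of reads were left uncounted for low mapping quality, so members with near-identical copies in the genome are uncertain. Agitated antioxidant replicate 3 stood apart from its group, and its members' values are given separately wherever a result rests on it. Fewer cells that use a gene and less RNA of it per cell cannot be told apart in such cultures.

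**Figure D1:**
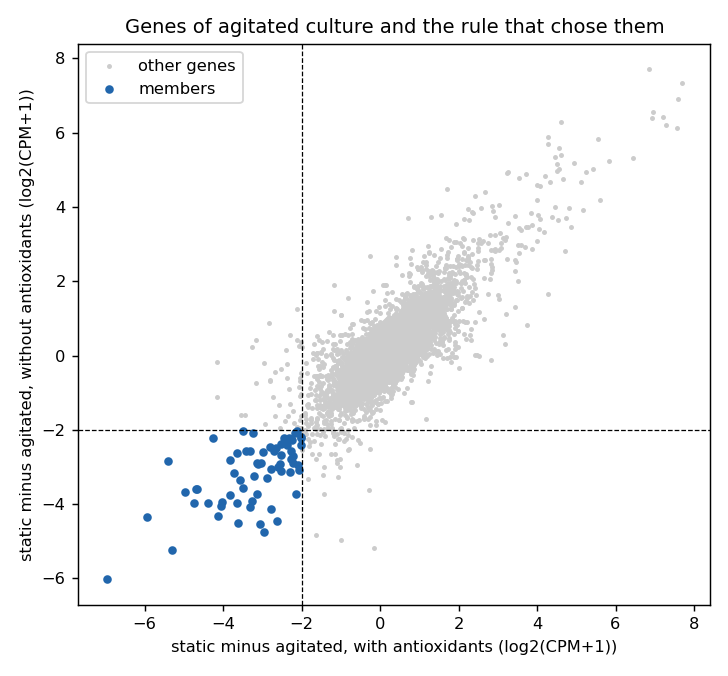
Static minus agitated difference in mean log2(CPM + 1) of each G. subvermispora gene with antioxidants (x axis) and without them (y axis), with the 66 members in blue, other genes in grey and the threshold of -2 as dashed lines. The members fill the lower left corner, down to -6.96 with and -6.02 without antioxidants, which is what the rule selected.

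The median static minus agitated difference of the members was -3.01 log2 units with antioxidants and -2.94 without, where the medians of all tested genes were 0.19 and 0.16, which describes the values that chose them and is no test. On the linear scale the static mean of a member was a median of 11.2% of the agitated mean with antioxidants and 10.9% without. The deepest difference left 0.703% with and 1.53% without antioxidants, and the shallowest 24.7% and 25.4%. By these mean CPM, 15 members were lower in static culture by 16-fold or more with antioxidants and 13 without, of which 8 were the same genes. On the log2(CPM + 1) scale the difference was larger with antioxidants for 35 members and larger without them for 31. In 64 of the 66 members every static library lay below every agitated one, where 9.03% of the tested genes were lower without overlap. The rule used these values, so nothing is read from that count. The exceptions were gene3469 and gene4018.

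Every member still gave reads in each static library. The median member had 18.7 CPM in static cultures with antioxidants and 16.6 CPM in static cultures without them, against 152 CPM in agitated cultures with and 117 CPM in agitated cultures without antioxidants. The median of all tested genes was 29.4 and 29.9 CPM in the same static groups and 25.5 and 26.4 CPM in the agitated ones. Members were chosen for high agitated against static levels, so these medians describe the choice. Only 1 member averaged under 1 CPM in static cultures with antioxidants and 2 in static cultures without them. Another 20 members in each static group averaged between 1 and 10 CPM. The weakest value of any member in a static library was 3 reads, and the weakest in an agitated library was 176 reads. For the members with few static reads, the counting error is part of the spread between libraries.

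Together the 66 genes took 0.82% ± 0.062 (SD, n = 3) of gene reads in static cultures with antioxidants and 0.565% ± 0.0852 in static cultures without them. In agitated cultures they took 6.24% ± 1.68 with antioxidants and 3.88% ± 0.234 without. The 3 agitated antioxidant libraries held 6.52%, 7.75% and 4.44%, each above the 3 agitated libraries without antioxidants at 3.87%, 4.12% and 3.66%. The static libraries were likewise apart, at 0.883%, 0.759% and 0.818% with antioxidants and 0.613%, 0.467% and 0.615% without. These shares weight genes by their reads. gene896 alone held 25.0% of the members' reads in the agitated libraries, the first 6 genes 59.9% and the first 10 genes 72.9%. The static shares also rest heavily on gene896, the only member averaging 1000 CPM or more in the static groups. It averaged 3867 CPM there with and 2192 CPM without antioxidants. Its antioxidant effect in static culture did not pass the test (log2 fold change 0.82, edgeR adjusted p = 0.2). Of the 200 genes with the most reads among all 12313, 1 was a member in static culture and 16 were members in agitated culture. The rule chose members for high agitated against static levels, so nothing is read from these counts.

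**Figure D2:**
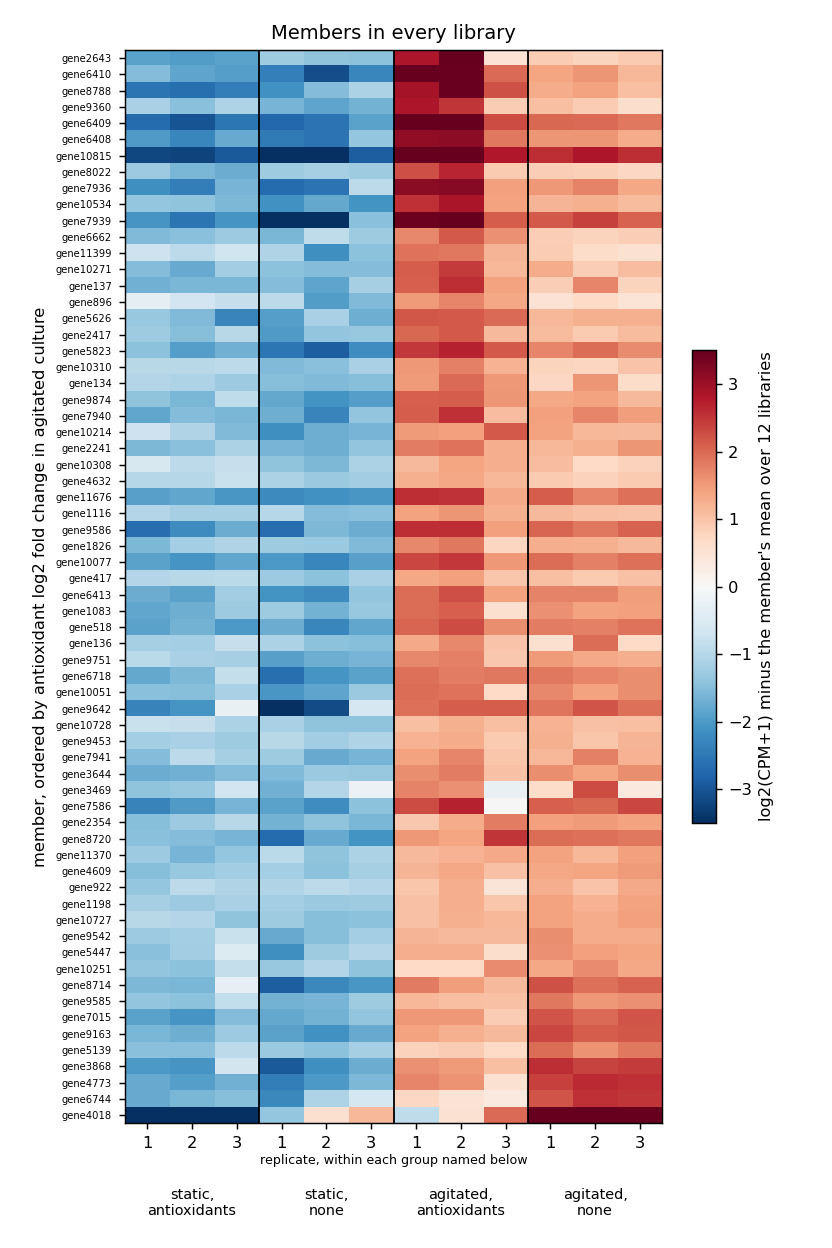
Log2(CPM + 1) of every member in each of the 12 libraries, centred on the member's mean, with replicates 1 to 3 within each group and members ordered by their antioxidant log2 fold change in agitated culture. Red is above and blue below the mean, and colours are saturated beyond 3.5 log2 units. The static libraries are blue and the agitated ones red apart from some libraries of gene3469, gene4018 and gene7586, and agitated antioxidant replicate 3 is paler than replicates 1 and 2 for 54 members, which were lower in it than in both.

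gene896 had the most reads of all members. It stood at 4599, 3642 and 3359 CPM in static cultures with antioxidants and at 3070, 1513 and 1992 CPM in static cultures without. In agitated cultures it reached 16317, 18898 and 14822 CPM with antioxidants and 8327, 9493 and 8087 CPM without. The 4 groups did not overlap, and within each culture the antioxidant libraries were the higher ones. gene896 was also close to the threshold, with a difference of -2.11 with and -2.04 without antioxidants.

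gene10815 showed the largest mean difference. It stood at 38.4, 36.8 and 46.0 CPM in static cultures with antioxidants and at 28.8, 28.6 and 47.3 CPM in static cultures without. The agitated antioxidant libraries held 6622, 8100 and 2515 CPM, against 2156, 2536 and 2139 CPM in agitated cultures without antioxidants. The level in agitated over that in static culture was thus 142-fold with antioxidants and 65.2-fold without. The static groups overlapped, while in agitated culture antioxidant replicates 1 and 2 stood well above the rest and replicate 3 lay just below the highest library without antioxidants.

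gene7939, second both in reads and in the size of its difference, showed the same unevenness. It had 169, 121 and 170 CPM in static cultures with antioxidants and 55.9, 43.8 and 258 CPM in static cultures without. In agitated culture it had 7687, 9269 and 3097 CPM with antioxidants and 3202, 3747 and 2990 CPM without. Static replicate 3 without antioxidants was far above its 2 partners, and agitated antioxidant replicate 3 fell within the range of the group without antioxidants.

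**Figure D3:**
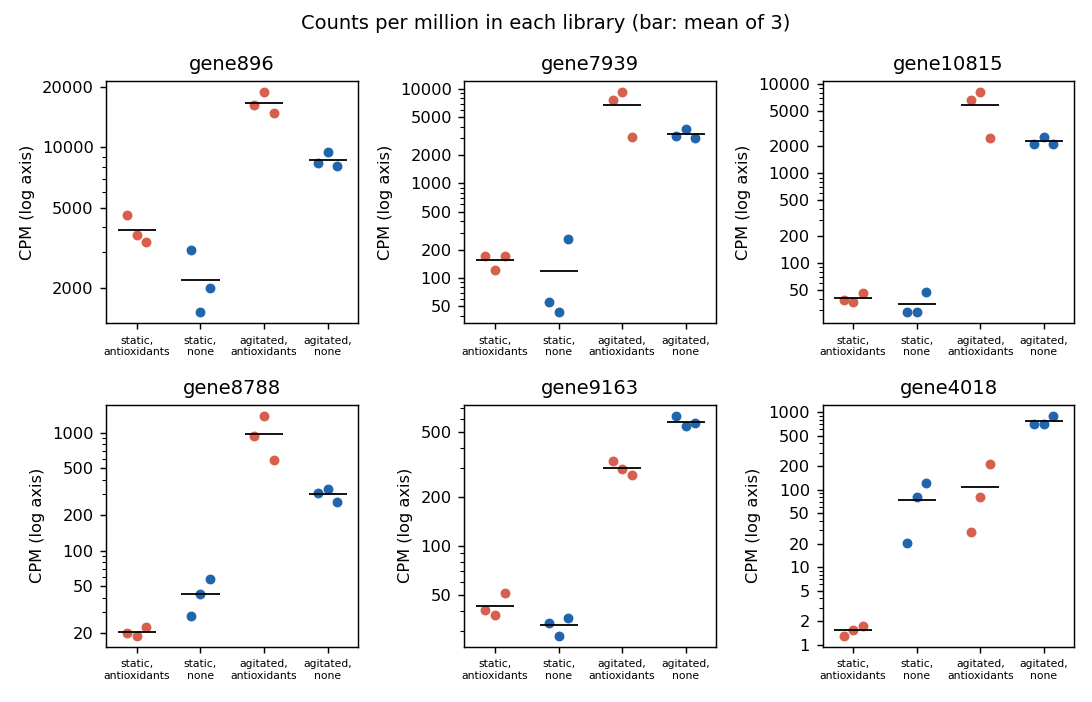
CPM on a log axis in each library of 6 named members, with antioxidants in red and without in blue, and the mean of 3 libraries as a bar. The top row shows the members with the most reads or the largest difference. In the bottom row gene8788 and gene9163 carry the clearest difference between the antioxidant effects in static and agitated culture, and gene4018 had a mean of 1.55 CPM in static cultures with antioxidants against 768 CPM in agitated cultures without.

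The threshold cut through a continuous range. Just inside it were gene922, with a difference of -2.01 with and -2.19 without antioxidants, and gene10728, with -2.02 and -2.41. gene922 averaged 30.0 ± 4.82 CPM in static and 126 ± 34.4 CPM in agitated cultures with antioxidants (SD, n = 3 each). Without antioxidants it averaged 32.2 ± 1.93 and 151 ± 18.1 CPM (SD, n = 3 each). Just outside were gene2375, with -1.99 and -2.10, and gene8196, with -1.98 and -2.55. gene8196 averaged 471 ± 93.5 CPM in static and 1865 ± 338 CPM in agitated cultures with antioxidants, and 517 ± 34.4 and 3029 ± 130 CPM without (SD, n = 3 each). In all, 18 members lay within 0.25 log2 units inside the threshold and 19 other genes within 0.25 outside it. Another 44 genes met the threshold only with antioxidants and 52 only without.

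The difference was also measured in libraries that had not taken part in the choice. Genes were chosen by the same rule from the libraries of 2 replicate numbers and then read in the libraries of the number left out. With replicate 1 left out, 61 genes were chosen, and in the replicate 1 libraries their median difference was -3.37 with and -3.15 without antioxidants. The medians of all tested genes in those libraries were 0.29 and 0.15. With replicate 2 left out, 61 genes were chosen and their medians in the replicate 2 libraries were -3.49 and -3.07. There the medians of all tested genes were 0.3 and 0.17. With replicate 3 left out, 76 genes were chosen and their medians in the replicate 3 libraries were smaller, at -2.23 with and -2.67 without antioxidants. There the medians of all tested genes were -0.03 and 0.17. Every one of the genes chosen was lower in the static than in the agitated library left out, with and without antioxidants, in all 3 rounds. The libraries left out belong to the same groups, and their replicates may be technical, so this is a description and no test. A difference of 4-fold or more in both states was seen for 53 of 61, 56 of 61 and 44 of 76 genes. The matching shares of all tested genes were not counted, so nothing is read from these counts. The sets shared 59, 57 and 64 genes with the 66, for which every library took part in the choice.

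Replicates of a group were spread more widely for the members than for all tested genes. The median SD of log2(CPM + 1) was 0.23 and 0.27 over the members in static cultures with and without antioxidants, against 0.13 and 0.14 over all tested genes. In agitated cultures it was 0.40 with and 0.14 without antioxidants, against 0.22 and 0.10. Genes were not matched by level here. As given above, the members' median level was below that of all tested genes in static culture and above it in agitated culture. The part of level in the spread was not tested. Relative to the other libraries of their group, the median member differed by 0.21 and 0.22 log2 units in static replicate 3 with and without antioxidants, and by -0.57 in agitated antioxidant replicate 3. The corresponding medians of all tested genes were -0.08, -0.06 and 0.24.

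Single members departed further. gene9642 had 44.4, 54.2 and 193 CPM in static cultures with antioxidants and 15.6, 25.4 and 152 CPM in static cultures without. In agitated culture it held 882, 1009 and 993 CPM with antioxidants and 849, 1060 and 874 CPM without. Both static replicate 3 libraries were thus high, while the agitated groups were even and overlapped. gene9642 was chosen after its values were seen, for its spread.

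The antioxidant effect in agitated culture was a contrast that the rule did not use. The rule did use the means of the same agitated groups, each set against its static group. The members' shares called and medians are thus not independent of the choice, here and in static culture below. edgeR's quasi-likelihood test over all 10529 tested genes raised 18 and lowered 6 of the 66 at an adjusted p under 0.05. That is 27.3% raised, where 11.6% of all tested genes were raised, and 9.09% lowered, where 10.6% of all tested genes were lowered. The median log2 fold change was 0.33 over the members and 0.003 over all tested genes. It was above 0 for 46 of the 66 members, or 69.7%, and for 50.5% of all tested genes. Among the 18 raised genes the median level was 943 CPM with and 285 CPM without antioxidants, and log2 fold changes of 0.42 to 2.15. Among the 6 lowered genes it was 54.6 CPM with and 105 CPM without, and log2 fold changes of -2.88 to -0.73. The 42 members that did not pass the test ranged from -1.0 to 1.35. With library totals in place of TMM, a scaling that limits the pull of a few strong genes, 20 members were raised and 7 lowered, and over all genes 724 were raised and 1121 lowered in place of 1224 and 1119. By the libraries alone, 18 members were higher in all 3 antioxidant libraries than in all 3 without, where 13.4% of tested genes were, and 13 were lower, where 21.4% were.

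The count of raised members depended on single libraries. Without agitated antioxidant replicate 3, edgeR raised 33 members, all 18 among them, and lowered 7, while 1374 genes in all were raised and 1191 lowered. Without antioxidant replicate 1 it raised 7 members and 950 genes in all, and without replicate 2 it raised 6 members and 1187 genes. When replicate 1, 2 or 3 of the agitated group lacking antioxidants was left out, it raised 5, 8 and 7 members and 738, 839 and 728 genes. The members' median log2 fold change was 0.19, 0.15 and 0.52 without antioxidant replicate 1, 2 and 3, and 0.32, 0.32 and 0.35 without those of the group lacking antioxidants. The lowered members numbered 4 to 8 without any library, and 700 to 1248 genes in all. The raised genes gene6410, gene6662, gene8788 and gene10534 and the lowered genes gene4018, gene5139, gene6744 and gene9163 stayed called whichever library was left out. Antioxidant replicate 3 was lower than replicates 1 and 2 for 17 of the 18 raised members, by a median log2 difference of -1.04. It was lower than both for 5 of the 6 lowered members and for 32 of the 42 others, and among all tested genes for 22.2%. The part of this library in the members' spread was not tested further.

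**Figure D4:**
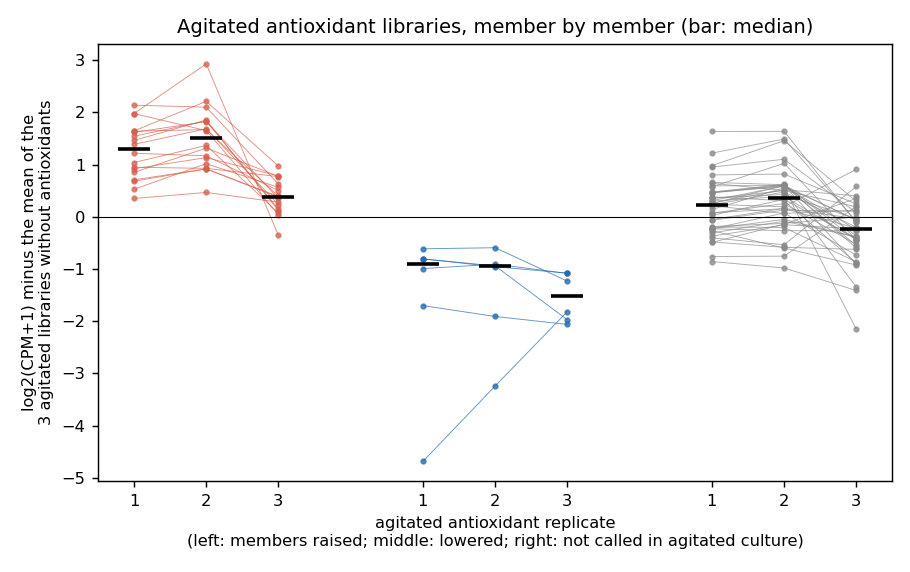
Log2(CPM + 1) of each member in the 3 agitated antioxidant libraries minus its mean over the 3 agitated libraries without antioxidants, for the 18 members raised (left), the 6 lowered (middle) and the 42 not called (right), with lines joining the same gene and the median as a bar. Replicate 3 lies below replicates 1 and 2 for 17 of the 18 raised members, and gene4018, the lowest line, runs the other way.

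Among the raised members whose libraries did not overlap, gene6410 rose most. It stood at 1180, 1149 and 413 CPM in agitated cultures with antioxidants and at 271, 302 and 233 CPM without (log2 fold change 1.86 with an SE of 0.39, edgeR adjusted p = 0.0065). gene8788 followed with 938, 1390 and 588 CPM with and 308, 334 and 261 CPM without antioxidants (log2 fold change 1.77 with an SE of 0.34, edgeR adjusted p = 0.0039). In both, replicate 3 was the lowest antioxidant library and still above every library without antioxidants. gene2643 had a larger log2 fold change, 2.15 (SE 0.59, edgeR adjusted p = 0.024), but its 2397, 4641 and 474 CPM with antioxidants overlapped its 623, 577 and 625 CPM without. It was chosen after its values were seen, and its call was lost in 7 of 19 alternatives, among them limma-voom (adjusted p = 0.083).

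The members with the most reads differed in how even the antioxidant effect was. gene896 rose in agitated culture (log2 fold change 1.01 with an SE of 0.24, edgeR adjusted p = 0.013), with all 3 antioxidant libraries above the others. Its adjusted p was 0.055 without agitated replicate 1 of the cultures lacking antioxidants. gene10815 rose too (log2 fold change 1.43 with an SE of 0.40, edgeR adjusted p = 0.026). Its call was lost in 8 of 19 alternatives, with adjusted p up to 0.087, while the log2 fold change stayed between 1.08 and 1.51 in those. gene7939 did not pass the test, at a log2 fold change of 1.11 with an SE of 0.62 (edgeR adjusted p = 0.23).

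gene4018 fell most. In agitated culture it stood at 28.6, 79.7 and 216 CPM with antioxidants and at 706, 696 and 902 CPM without (log2 fold change -2.88 with an SE of 0.65, edgeR adjusted p = 0.01). gene6744 stood at 17.7, 15.2 and 13.5 CPM with antioxidants and at 51.2, 66.0 and 63.1 CPM without (log2 fold change -1.90 with an SE of 0.30, edgeR adjusted p = 0.0015). The antioxidant libraries of gene6744 were close together, whereas those of gene4018 ranged from 28.6 to 216 CPM, all below the lowest library without antioxidants. In gene4018 replicate 3 was the highest antioxidant library, the reverse of the raised members.

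In static culture the antioxidants changed 1 member by the same test and raised none, where 0.361% of all tested genes were lowered and 0.095% raised. The changed gene was again gene4018. It stood at 1.31, 1.57 and 1.76 CPM in static cultures with antioxidants, 31 to 37 reads, and at 20.4, 80.4 and 122 CPM without (log2 fold change -5.63 with an SE of 0.82, edgeR adjusted p = 0.016). All 3 antioxidant libraries were low and even, and those without were high and uneven. Across the 4 groups gene4018 was lowest in static cultures with antioxidants and highest in agitated cultures without them, while the remaining groups overlapped. The static call of gene4018 was lost in limma-voom (adjusted p = 0.10) and without any of 5 static libraries in turn (edgeR adjusted p = 0.05 to 0.11, where the lower value rounds to the threshold), while its log2 fold change kept between -5.75 and -5.04.

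The median log2 fold change in static culture was 0.27 over the members and -0.005 over all tested genes. Above 0 were 44 of the 66 members, or 66.7%, and 48.9% of all tested genes. The members' median depended on single libraries. Without static antioxidant replicate 3 it was 0.06, with 38 members above 0, and the median of all tested genes was -0.008. The members' median was 0.28 and 0.30 without antioxidant replicates 1 and 2. Without replicate 1, 2 or 3 of the static group lacking antioxidants it was 0.15, 0.15 and 0.41. At an unadjusted p under 0.05 edgeR had 15 members higher, where 5.14% of tested genes were, and 2 lower, where 6.42% were. In 19 members all 3 static antioxidant libraries lay above all 3 without, where 7.41% of tested genes did so, and in 4 all lay below, where 8.79% did. DESeq2 raised 5 and lowered 1, and 86 and 162 genes in all. The same-number static libraries deviated together, with correlations of 0.251, 0.137 and 0.319 across genes. With the replicate number as a block in all 12 libraries 0 members were raised and 1 lowered, and 4 and 24 genes in all. With that block applied to static libraries within the fit of all 12, chosen after seeing the data, 1 was raised and 1 lowered, and 25 and 65 genes in all. In a fit of the 6 static libraries alone with the block, also chosen after seeing the data, 11 were raised and 3 lowered, and 97 and 225 genes of 10467 in all.

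Whether the antioxidant effect on a member differed between static and agitated culture was tested as the difference of both effects. That difference equals the one between the contrasts the rule bounded, so genes that lost the 4-fold difference in 1 state were left out beforehand. Of the 66 members, 2 had a more positive effect in static culture, 3.03% where 4.28% of all tested genes did, and 2 a more negative one, 3.03% where 4.77% did. With the replicate number as a block the counts were 1 and 2 members, and 359 and 355 genes in all. DESeq2 found 4 and 6 members, and 765 and 751 genes. Without agitated antioxidant replicate 3 edgeR found 2 and 14 members, and 669 and 827 genes. Without static replicate 1 lacking antioxidants it found 1 and 5 members, and 591 and 593 genes. With the block in static libraries, the first count was 6 members, and 499 genes. On library totals it was 4 members, and over all genes 422 differences were more positive and 259 more negative, in place of 451 and 502.

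gene8788 had the most negative difference. In static culture it stood at 20.2, 19.04 and 22.5 CPM with antioxidants and at 27.9, 42.8 and 57.0 CPM without, and in agitated culture antioxidants raised it as described above (difference -2.84, SE 0.48, edgeR adjusted p = 0.0061). Its static antioxidant libraries lay below those without, the reverse of its agitated ones, though the static effect alone did not pass (log2 fold change -1.07, edgeR adjusted p = 0.25). gene6662 stood at 3.602, 3.82 and 4.55 CPM with and 3.43, 6.24 and 4.64 CPM without antioxidants in static culture. In agitated culture it stood at 41.9, 58.2 and 39.7 CPM with and 23.3, 22.02 and 23.02 CPM without (difference -1.40, SE 0.32, edgeR adjusted p = 0.020). Its static groups overlapped and its agitated groups did not.

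gene9163 had the most positive difference. In static culture it stood at 40.2, 37.3 and 50.9 CPM with antioxidants and 33.6, 28.0 and 35.9 CPM without. In agitated culture it stood at 330, 298 and 273 CPM with and 630, 542 and 568 CPM without (difference 1.29, SE 0.24, edgeR adjusted p = 0.0086). gene5139 stood at 11.1, 11.0 and 16.5 CPM with and 12.4, 11.3 and 13.8 CPM without antioxidants in static culture, and at 56.8, 60.3 and 53.2 CPM with and 127, 98.1 and 119 CPM without in agitated culture (difference 1.00, SE 0.27, edgeR adjusted p = 0.042). In both genes the agitated antioxidant libraries were even and all below the others. The calls of gene8788 and gene9163 held in all 19 alternatives, while that of gene5139 was lost in 12 and that of gene6662 in 5.

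**Figure D5:**
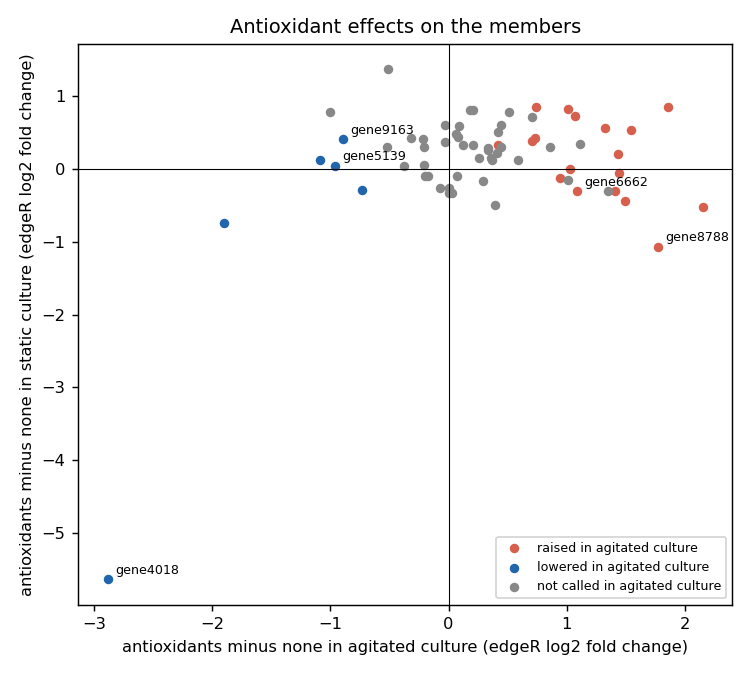
EdgeR log2 fold change of antioxidants over none in agitated culture (x axis) and in static culture (y axis) for the 66 members, coloured by the call in agitated culture. The 18 raised members spread from 0.42 to 2.15 on the x axis with static values on both sides of 0, and gene4018 lies alone at -2.88 and -5.63.

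The antioxidant effects in the 2 culture states, which share no library, had a Pearson's r of 0.36 and a Spearman's rho of 0.02 over the 66 members. Without gene4018 r was -0.07 over 65 members. Over all tested genes it was 0.019. These are descriptions across genes, which share their libraries and are not independent. Of the 18 members raised in agitated culture, 10 were above and 8 below 0 in static culture. Of the 6 lowered, 3 were above and 3 below 0. Of the 42 not called, 31 were above and 11 below 0. Among all tested genes 48.9% were above 0 in static culture.

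Some members carried neighbouring numbers. The files do not say whether the numbers follow the order of genes along the genome. 12 members, or 18.2%, stood next to another member in number, and 1.04% of all gene numbers stood next to a member. All gene numbers here include those of genes that failed the filter on low counts, which every member passed. Within 5 numbers of another member were 17, or 25.8%, against 4.61% of all gene numbers. They formed 6 groups, of which the largest had 4 members each: gene6408, gene6409, gene6410 and gene6413, and gene7936, gene7939, gene7940 and gene7941. The 2 longest unbroken runs, of 3 numbers each, lay within these groups. Reads that overlap more than 1 gene were left out of the counts and came to at most 0.271% of a library. Whether neighbours share sequence was not tested.

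All 3 genes of the run from gene6408 to gene6410 rose with antioxidants in agitated culture, gene6408 by a log2 fold change of 1.44 (SE 0.40, edgeR adjusted p = 0.025) and gene6409 by 1.49 (SE 0.38, edgeR adjusted p = 0.017), beside gene6410 above. The calls of gene6408 and gene6409 were lost in 5 and 6 of 19 alternatives, with adjusted p up to 0.085. gene6409 stood at 9.08, 7.05 and 10.3 CPM in static cultures with antioxidants and 8.63, 9.92 and 16.6 CPM in static cultures without. It reached 769, 888 and 319 CPM in agitated cultures with antioxidants and 259, 259 and 232 CPM without. In all 3 genes agitated antioxidant replicate 3 lay below replicates 1 and 2, with log2 differences of -1.26, -1.37 and -1.49. gene6413 did not pass the test, at a log2 fold change of 0.33 (edgeR adjusted p = 0.46). The numbers between, gene6411 and gene6412, were no members, with static minus agitated differences of -0.53 and 0.12 with antioxidants and 0.28 and 0.84 without. They are named as the non-members inside the group, after their values were seen.

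The second run, gene7939 to gene7941, was graded. The static minus agitated difference was -5.31, -3.57 and -2.56 with antioxidants and -5.24, -3.35 and -2.92 without. gene7940 stood at 25.8, 32.3 and 30.5 CPM in static cultures with antioxidants and 27.9, 18.2 and 35.3 CPM in static cultures without. In agitated cultures it stood at 410, 561 and 202 CPM with antioxidants and 257, 312 and 261 CPM without. gene7941 stood at 3.86, 6.33 and 5.23 CPM in static cultures with antioxidants and 4.83, 3.12 and 3.55 CPM without. In agitated cultures it stood at 35.9, 44.6 and 26.1 CPM with antioxidants and 30.1, 45.9 and 31.6 CPM without. Antioxidants changed neither in agitated culture by edgeR (log2 fold change 0.59, adjusted p = 0.27, and 0.06, adjusted p = 0.90). Without agitated antioxidant replicate 3 the log2 fold change of gene7940 was 0.94 (edgeR adjusted p = 0.018).

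Another group shared a departure in a different library. gene134, gene136 and gene137 stood at 2019, 3604 and 1909 CPM, at 66.2, 174 and 73.0 CPM and at 76.7, 141 and 72.9 CPM in agitated replicates 1, 2 and 3 without antioxidants. Replicate 2 was the highest in each, by 0.88, 1.31 and 0.90 log2 units over the other 2 libraries, where the median member differed by -0.06 in that library. gene3469, outside any such group, did the same at 126, 400 and 102 CPM. These 4 genes were chosen after their values were seen.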

How the data were processed

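The deposited values are whole-number read counts for each gene, without normalization. FastQC, Bowtie2, Bowtie and HTSeq appear in the submitters' processing notes without versions or roles. The library kit was stranded, per the labels' protocols, while the strand setting of the counting, the genome build and the annotation were not stated in the sources used here, so overlapping and antisense genes are uncertain. HTSeq's summary lines were kept out of totals and tests. T. versicolor tables were only counted for their genes.

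Membership used CPM on library totals, and all CPM printed are on that scale. Tests used edgeR 4.0.16 in R 4.3.3 on the 12 G. subvermispora libraries: filterByExpr, TMM, 4 group means, robust quasi-likelihood fitting (glmQLFit, glmQLFTest; 8 residual degrees of freedom), and Benjamini-Hochberg adjustment over 10529 genes. The SE was derived from the F statistic. The procedure was tested on simulated counts. Alternatives were DESeq2 1.42.0, limma-voom (limma 3.58.1), other scalings, filters, a replicate block and leaving out each library.

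Members and tests were chosen with earlier results of these data known. Gene lists by product (hydrophobins, laccases, peroxidases, cytochromes P450, transporters and others) could not be filled, because no table pairs the numbers with names, so none has a result. Named genes are, per antioxidant comparison, the 2 largest called rises and 2 largest called falls without overlap of libraries (overlap allowed for the difference), the 2 members with most reads, the 2 largest static minus agitated differences, 2 genes on either side of the threshold and the 2 longest runs of numbers. Of the others, gene10534, gene7586, gene6413 and gene7936 complete a list or group and were not chosen by this rule. The rest are marked as chosen after their values were seen.

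Same-number libraries with and without antioxidants were compared by the correlation of their deviations from group means. In static culture all 3 pairs exceeded 0.1, as given beside the result, and different numbers reached at most 0.028. In agitated culture the pairs were at -0.05, 0.09 and -0.018. What a replicate number marks is not labelled. No 2 replicates agreed within sampling noise (chi-square per degree of freedom 18.03 to 145.55).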

Additional observations from a re-analysis of the deposited data

Results flagged for a closer look

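The antioxidant effect on 4 members differed between static and agitated culture by edgeR's test of the difference, at shares no higher than among all tested genes (3.03% of members and 4.28% of genes more positive, 3.03% and 4.77% more negative). This contrast is the difference of those that the choice of members bounded. It was more negative in static culture for gene8788 (-2.84, SE 0.48, adjusted p = 0.0061) and gene6662 (-1.40, SE 0.32, adjusted p = 0.020), and more positive for gene9163 (1.29, SE 0.24, adjusted p = 0.0086) and gene5139 (1.00, SE 0.27, adjusted p = 0.042). Their static and agitated groups with and without antioxidants are given library by library above.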

How the results depend on the processing

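The size of the set of 66 depended on scaling and pseudocount. It had 80 genes on TMM-scaled totals, 72 with a pseudocount of 0.5 and 52 with a pseudocount of 5. The sets of 80 and 72 held all 66, and the 52 were all among them. The set had 61 to 72 genes without any library. The members' shares of reads moved by less than 1 SD without any library. The median difference in libraries left out of the choice, over both states, was -3.30, and -2.47 when replicate 3 was the one left out. On TMM-scaled totals it was -3.29. Of the genes then chosen without replicate 3, 99 were lower in static culture in both states and 2 were not. The matching share of all tested genes was not counted.

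Of the antioxidant results, the members raised in agitated culture numbered 8 with only the 2 groups in the fit, where 849 of 10263 genes were raised. Without any library they numbered 5 to 33, and 728 to 1374 genes in all. With the replicate block, 13 members were raised and 5 lowered there, and 1044 and 1047 genes in all. Same-number agitated libraries had correlations of -0.05, 0.09 and -0.018, and whether the numbers pair them is not labelled. Raised members in static culture numbered 5 with DESeq2 and 0 to 4 without any library, and 86 and 3 to 67 genes in all. With the block in static libraries they numbered 1, and 25 genes. With the block in a fit of static libraries alone they numbered 11, and 97 genes. The lowered members numbered 0 with limma-voom and 2 with only the 2 groups, and 45 and 73 genes in all. With the block in static libraries alone they numbered 3, and 225 genes. Without any library they numbered 0 or 1, and 6 to 177 genes. Members with a more positive difference numbered 4 with DESeq2 and 4 with library totals alone, and 765 and 422 genes in all. With limma-voom and with the replicate block they numbered 1 each, and 490 and 359 genes. With the block in static libraries they numbered 6, and 499 genes. Without any library they numbered 1 to 3, and 230 to 669 genes. Members with a more negative difference numbered 6 with DESeq2 and 1 to 14 without any library, and 751 and 229 to 827 genes in all. The cause of these shifts was not tested. No called antioxidant effect of a named member changed direction in these alternatives. Depth limits mainly static replicate 1 without antioxidants, where the weakest member had 3 reads.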
